A study of Mus musculus with 14 samples.

Results

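The thin filament of the heart muscle sarcomere was followed through 10 genes: the skeletal and cardiac alpha-actins Acta1 and Actc1, the Z-disc crosslinker of actin Actn2, the tropomyosins Tpm1 and Tpm2, the troponin T genes Tnnt2 and Tnnt1, the troponin I genes Tnni3 and Tnni1, and the troponin C gene Tnnc1. They were chosen by name from the 51912 genes of the count tables, and each matched 1 row. Gene expression was measured by RNA sequencing of poly(A)-selected RNA in 14 libraries from hearts of C57BL/6J mice. The groups were wild-type TAC (2 libraries, age 10 weeks), wild-type sham (4 libraries, 2 at 11 weeks and 2 at 10 weeks), Clk3 KO TAC (4 libraries, 10 weeks) and Clk3 KO sham (4 libraries, 2 at 11 weeks and 2 at 10 weeks). TAC is taken here as transverse aortic constriction, an operation that narrows the aorta and loads the left ventricle, and the series asks what the splicing-factor kinase Clk3 does as the heart enlarges. The labels give neither the time after surgery, the sex, the part of the heart nor the exons removed in the knockout, and do not say whether a library is 1 animal. Reported p-values therefore measure the spread between these libraries, which may be technical in part.

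Thin filaments are polymers of actin along which tropomyosin runs as a coiled coil. The troponin complex sits on tropomyosin: troponin C binds calcium, troponin I inhibits the interaction of actin with myosin, and troponin T anchors the complex. The fetal heart uses slow skeletal troponin I (Tnni1), which the adult heart replaces by the cardiac form (Tnni3), and the fetal rodent heart holds more skeletal alpha-actin than the adult ventricle. A rise of Acta1 under pressure load is a classical sign of the return of fetal genes in rodent hearts.

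The promoters of both alpha-actins are shown because serum response factor, a regulator of muscle actin genes, binds the CArG box, which both carry. Each sequence is the 100 bases before the start annotated in RefSeq (GRCm38.p6), written 5′ to 3′ on the gene's strand, with every CArG box, MCAT motif (CATTCC) and TATAAA found there in capitals. The sequences of Tnnt1 and Tpm2 are set beside them because these were the other genes whose levels differed most after TAC. They lie at chr8:123894776-123894875 (Acta1), chr2:114052876-114052975 (Actc1), chr7:4515976-4516075 (Tnnt1) and chr4:43523555-43523654 (Tpm2), each on the minus strand.
Acta1: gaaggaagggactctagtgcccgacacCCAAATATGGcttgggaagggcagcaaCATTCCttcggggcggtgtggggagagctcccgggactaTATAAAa
Actc1: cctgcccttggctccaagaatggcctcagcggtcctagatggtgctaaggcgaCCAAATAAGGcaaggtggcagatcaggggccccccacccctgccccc
Tnnt1: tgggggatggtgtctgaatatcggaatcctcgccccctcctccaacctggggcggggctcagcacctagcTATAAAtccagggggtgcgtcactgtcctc
Tpm2: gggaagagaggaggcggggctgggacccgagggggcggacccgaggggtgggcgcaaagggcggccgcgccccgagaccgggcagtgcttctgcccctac
The CArG box of Acta1 ran from 73 to 64 bases before the start and that of Actc1 from 47 to 38 bases before it. All 10 genes matched the promoter table, and among them Acta1 and Actc1 were the members with a CArG box in the 300-base window around a start, searched on both strands. Of the 32851 windows of all genes, 1.63% held a CArG box, 14.7% an MCAT motif and 13.6% a TATAAA. MCAT was found in Acta1, Tnnt2, Tnnc1 and Tpm1, and TATAAA in Acta1, Actc1 and Tnnt1. In Acta1 TATAAA began 7 bases before the annotated start and in Actc1 34 bases after it, so positions count from the table's start only. These are matches of letters and were not tested for binding.

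Gene counts ranged from 11385818 to 20369637 per library, and the 10 genes took 1.67% to 2.25% of them. The library labelled wild-type TAC 1 goes against its label. Its Clk3 level was 54.2 CPM (gene counts scaled so that library sizes match). The 8 Clk3 KO libraries held 50.8 to 67.4 CPM, and the remaining 5 of wild type held 73.2 to 96.0 CPM. Gm8730, a processed pseudogene, was taken as a marker of genotype from earlier results of these data, so it is not independent support. Its level was 66.8 CPM in wild-type TAC 1 and 57.4 to 67.1 CPM in the 8 Clk3 KO libraries, against 1.26 to 1.63 CPM in those 5. The natriuretic peptide gene Nppa, a marker of cardiac load, was at 1912 CPM in wild-type TAC 1, against 104 to 217 CPM in wild-type sham. Every wild-type TAC value rests in part on the library labelled wild-type TAC 1. Without it the group holds 1 library, whose spread is assumed to be that of the other groups. The cardiomyocyte markers were high in all 14 libraries, with a summed level of 23340 to 30530 CPM over 7 genes.

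**Figure D1:**
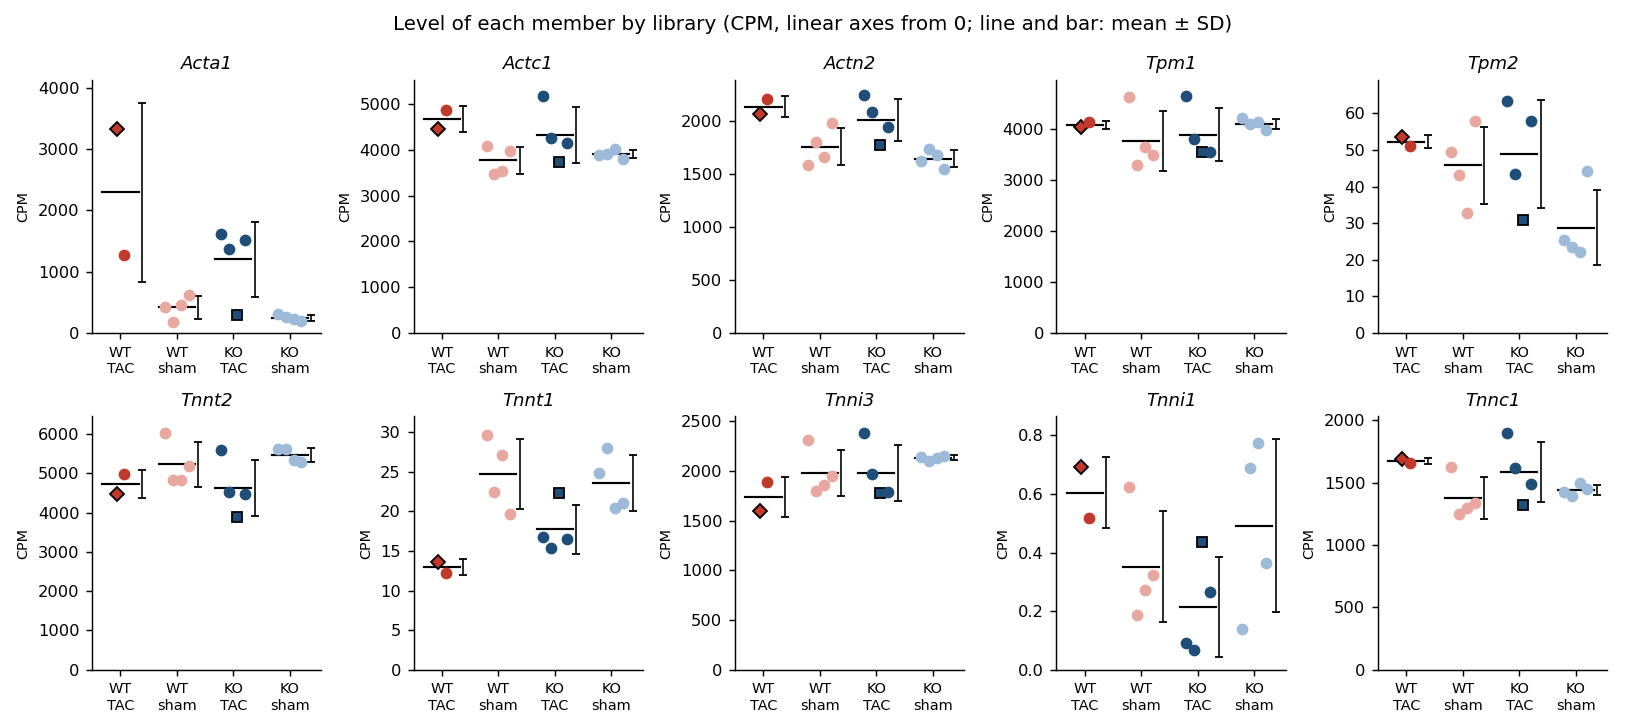
Level of each of the 10 genes in CPM (y axis, linear, from 0) in every library of the 4 groups (WT, wild type; KO, Clk3 KO), with the mean as a line and the SD as a bar at the right. The diamond is the library labelled wild-type TAC 1 and the square is Clk3 KO TAC 3, whose 296 CPM of Acta1 lies inside the 190 to 312 CPM of Clk3 KO sham.

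Per coding length, Tnnt2, Actc1, Tnnc1, Tpm1 and Tnni3 led in both sham groups and in Clk3 KO TAC. In wild-type TAC the means of Tnni3 (1964 ± 211) and Acta1 (1958 ± 1239) did not differ beyond the spread (coding CPM per kilobase, SD, n = 2). In wild-type sham this level averaged 4779 ± 543 for Tnnt2, 3298 ± 263 for Actc1, 2779 ± 352 for Tnnc1, 2563 ± 417 for Tpm1 and 2201 ± 269 for Tnni3 (SD, n = 4). Actn2 followed with 648 ± 64.2, Acta1 with 358 ± 159, Tpm2 with 42.0 ± 9.59, Tnnt1 with 27.4 ± 5.03 and Tnni1 with 0.51 ± 0.23 on the same scale. The libraries of neighbours in this order overlapped for Actc1 and Tnnc1, for Tnnc1 and Tpm1, for Tpm1 and Tnni3 and for Tpm2 and Tnnt1, and did not overlap at the other steps.

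In Clk3 KO sham the order was the same, from 5003 ± 121 for Tnnt2 to 210 ± 45.4 for Acta1, 26.4 ± 9.63 for Tpm2, 26.2 ± 3.88 for Tnnt1 and 0.62 ± 0.38 for Tnni1 (coding CPM per kilobase, SD, n = 4). After TAC Acta1 passed Actn2 on this scale, with 1958 ± 1239 for Acta1 and 789 ± 38.2 for Actn2 in wild-type TAC (n = 2), and with 1023 ± 524 for Acta1 and 742 ± 74.1 for Actn2 in Clk3 KO TAC (n = 4). In Clk3 KO TAC the libraries of Acta1 and Actn2 overlapped. The order depends on the length used. Coding length merges all annotated coding exons of a gene, such as 1426 bases for Tpm1 (21 transcripts) and 870 bases for Tnni3 (8 transcripts). A single transcript may be shorter, so the levels of such genes may read low. The annotated exons of Tnnt2 sum to 7752 bases around a coding part of 961 bases, and per kilobase of all exons Actc1 ranked 1 and Tnnt2 ranked 4 in both sham groups. On that exon scale Acta1 ranked 3 in wild-type TAC and 4 in Clk3 KO TAC, against 7 in both sham groups. Its mean in wild-type TAC was 1494 CPM per kilobase of exon, beside 844 for Tnni3, 629 for Tpm1 and 609 for Tnnt2.

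After TAC, 1 member rose and 1 fell in wild type, and 3 rose in Clk3 KO. Of the 9 members with enough counts to test, Acta1 rose and Tnnt1 fell in wild type (edgeR's quasi-likelihood test, Benjamini-Hochberg adjusted over 15651 genes, threshold 0.05). Over all genes 12.2% were called in that comparison, with 6.91% of all genes higher and 5.3% lower after TAC. In Clk3 KO Acta1, Actn2 and Tpm2 rose and none fell, where 13.0% of all genes were called (6.73% higher and 6.26% lower). The median log2 fold change over the 9 tested members was 0.19 in wild type and 0.14 in Clk3 KO, beside −0.0023 and −0.0053 over all genes tested. Without the library labelled wild-type TAC 1, Tnnt1 was the member still called in wild type and 3.16% of all genes were called. The libraries of TAC and sham did not overlap for 5 of the 9 members in wild type (Acta1, Actc1, Actn2 and Tnnc1 higher, Tnnt1 lower), where 30.6% of all genes did not overlap. In Clk3 KO this held for 1 of 9, Actn2, against 21.8% of all genes. In bulk hearts fewer cells of a type and less RNA per cell cannot be told apart.

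**Figure D2:**
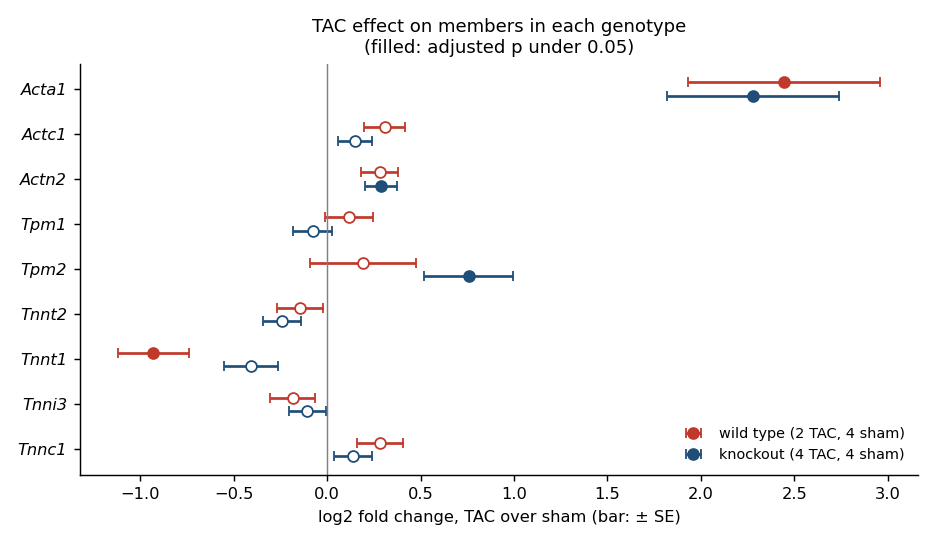
Log2 fold change of TAC over sham (x axis, with its SE) for the 9 tested members in wild type (red) and Clk3 KO (blue), where filled points passed an adjusted p of 0.05. Acta1 lies at 2.45 in wild type and 2.28 in Clk3 KO, and all the other members lie between −0.93 and 0.76.

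Acta1 (ENSMUSG00000031972.5, chromosome 8, 123891769 to 123894751, minus strand, GRCm38), the skeletal alpha-actin, moved most. Its level was 3326 CPM in the first wild-type TAC library (the one labelled wild-type TAC 1) and 1265 CPM in wild-type TAC 2, against 427, 174, 461 and 625 CPM in wild-type sham 1 to 4. Both wild-type TAC libraries lay above all 4 sham libraries. The Clk3 KO levels were 1618, 1365, 296 and 1524 CPM in TAC 1 to 4, against 312, 264, 224 and 190 CPM in sham 1 to 4. Libraries 1, 2 and 4 of Clk3 KO TAC lay above all sham libraries, and Clk3 KO TAC 3 lay among them.

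The rise was 5.44-fold in wild type (log2 2.45, SE 0.52, edgeR adjusted p = 0.00574) and 4.85-fold in Clk3 KO (log2 2.28, SE 0.46, edgeR adjusted p = 0.00622). Without the library labelled wild-type TAC 1 the wild-type value fell to 1.59 and was not called (edgeR adjusted p = 0.179). It was 2.98 without wild-type TAC 2 (edgeR adjusted p = 0.00321). Without Clk3 KO TAC 3 the Clk3 KO value was 2.60 (edgeR adjusted p = 0.000987). Among 10-week libraries alone the values were 2.08 in wild type and 2.53 in Clk3 KO, and neither was called (edgeR adjusted p = 0.0788 and 0.0937, with 15 of 15391 genes called in that Clk3 KO comparison).

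In Clk3 KO TAC 3 the genes higher after TAC did not all move alike. Its Nppa level of 1119 CPM was the highest of the Clk3 KO TAC group, whose other libraries stood at 909, 640 and 710 CPM, against 118 to 235 CPM in Clk3 KO sham. Its levels of Nrap (1039 CPM) and Actn1 (40.9 CPM) were the lowest of that group. Of 4 fibroblast markers, Col1a1 (158 CPM, the next library at 160 CPM) and Pdgfra (56.4 CPM) were also lowest there. Dcn (693 CPM) was the highest of the group and Lum (116 CPM) lay between. The share of reads in no annotated feature in Clk3 KO TAC 3, 12.3%, was the lowest of the group. Whether any of these bears on its Acta1 level was not tested.

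Skeletal muscle markers were low in the libraries. Of 9 skeletal muscle markers, 5 were under 0.3 CPM in every library, the fast myosin gene Myh4 had 0 counts in all 14, and the summed level of the 9 was 3.45 to 4.37 CPM in wild-type TAC, 4.77 to 5.31 in wild-type sham, 3.86 to 5.15 in Clk3 KO TAC and 4.37 to 5.99 in Clk3 KO sham. The summed marker level in the library with 3326 CPM of Acta1 was the lowest of all. The 4 markers with enough counts to test did not move alike. In wild type Tnnt3 averaged 1.43 CPM after TAC and 0.79 after sham. Atp2a1 averaged 0.30 and 0.93 CPM, Tnni2 0.75 and 1.55, and Mylpf 1.32 and 1.55. Of these 4, 0 were called in wild type and 1, lower, in Clk3 KO, beside 12.2% and 13.0% of all genes. Whether skeletal muscle tissue bears on the Acta1 levels was not tested. Of the 4 atrial myocyte markers, Myl7, Sln and Bmp10 were at or under 1.02 CPM in every library, and the sum of the 4 did not pass 5.05 CPM.

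Actc1 (ENSMUSG00000068614.7, chromosome 2), the cardiac alpha-actin, changed little beside Acta1. Its level was 4465 and 4864 CPM in wild-type TAC, against 4080, 3478, 3543 and 3973 CPM in wild-type sham. The wild-type groups did not overlap, and the difference of 0.31 (log2, SE 0.11) missed the threshold (edgeR adjusted p = 0.0797). Among Clk3 KO hearts it was at 5181, 4251, 3733 and 4141 CPM after TAC, against 3888, 3901, 4010 and 3799 CPM after sham, with overlap and a difference of 0.15 (log2, SE 0.09, edgeR adjusted p = 0.289).

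The share of Acta1 among the coding reads of both alpha-actins shows the mixture within a library, free of the scaling between libraries. Acta1 made up 20.2% of them in wild-type TAC 2 and 42.0% in the library labelled wild-type TAC 1 (95% Wilson interval 41.7 to 42.4), against 9.16%, 4.64%, 11.2% and 13.3% in wild-type sham. Among Clk3 KO hearts it made up 23.3%, 23.8%, 7.10% and 26.4% after TAC, against 7.23%, 6.15%, 5.16% and 4.59% after sham. Group means were 31.1% ± 15.4 in wild-type TAC, 9.57% ± 3.70 in wild-type sham, 20.2% ± 8.80 in Clk3 KO TAC and 5.78% ± 1.16 in Clk3 KO sham (SD, n = 2, 4, 4 and 4). Counting error was small beside the spread of libraries, since no interval was wider than 0.61 percentage points. Intervals cover counting error only, because PCR copies are not independent molecules.

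The ratio of Acta1 to Actc1 per kilobase was higher after TAC by 2.11 (log2) in wild type, which gave the smallest p that 2 against 4 libraries allow (exact two-sided permutation test, p = 0.0667). In Clk3 KO it was higher by 1.90 (exact permutation p = 0.0571, with 0.0286 the smallest possible). Adjusted over the 16 ratio tests, both gave 0.267. With these group sizes no ratio could pass 0.05 after that adjustment. Transcripts of Acta1 and Actc1 shared no stretch of 50 bases with each other. Acta1 shared 2.02% of its stretches with other genes, of which Actb and the predicted genes Gm47692 and Gm8543 shared the most.

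**Figure D3:**
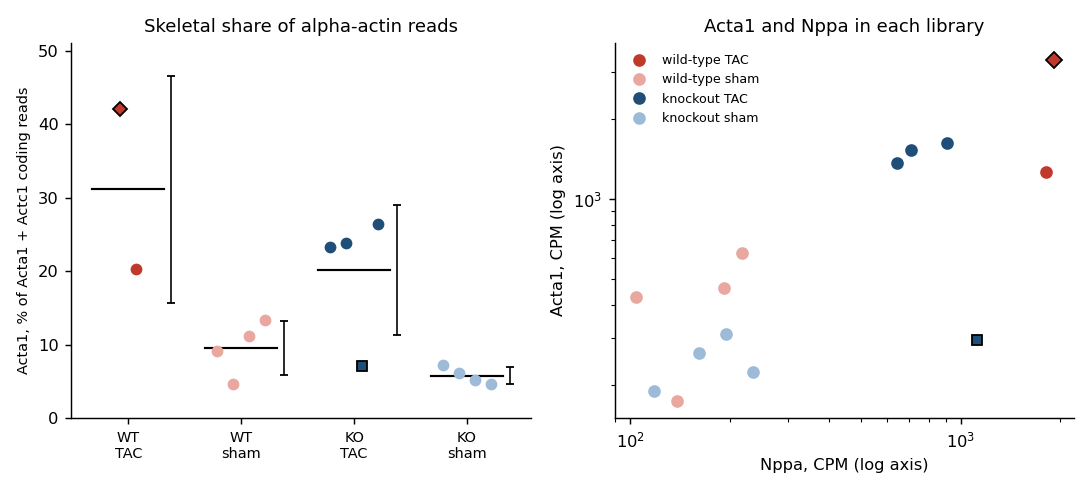
Left, Acta1 as a percentage of the coding reads of Acta1 and Actc1 together in each library, with mean and SD, and right, Acta1 against Nppa in CPM on log axes, 1 point per library. The diamond (the library labelled wild-type TAC 1, 42.0%) is the highest, and the square (Clk3 KO TAC 3) pairs 1119 CPM of Nppa with 296 CPM of Acta1.

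Actn2 (ENSMUSG00000052374.15, chromosome 13), the sarcomeric alpha-actinin, was slightly higher after TAC. In wild type it stood at 2066 and 2207 CPM after TAC, against 1588, 1804, 1661 and 1983 CPM after sham, a difference of 0.28 (log2, SE 0.10) that missed the threshold (edgeR adjusted p = 0.0847). The Clk3 KO levels were 2241, 2084, 1778 and 1943 CPM after TAC, against 1621, 1738, 1682 and 1544 CPM after sham. All 4 Clk3 KO TAC libraries were above all 4 sham libraries, a rise of 0.29 (log2, SE 0.08, edgeR adjusted p = 0.0351). That call was lost when any of Clk3 KO sham 1 to 4 or Clk3 KO TAC 1, 2 or 4 was left out (edgeR adjusted p = 0.0624 to 0.0951), with age as a covariate and in 10-week libraries alone.

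Tpm1 (ENSMUSG00000032366.15, chromosome 9), the main tropomyosin of the heart, did not pass in any comparison. Its level was 4024 and 4133 CPM in wild-type TAC, against 4620, 3283, 3650 and 3483 CPM in wild-type sham. Among Clk3 KO hearts it stood at 4647, 3793, 3547 and 3548 CPM after TAC, against 4206, 4085, 4123 and 3976 CPM after sham. The groups overlapped in both genotypes, with differences of 0.12 (log2, SE 0.13, edgeR adjusted p = 0.611) in wild type and −0.08 (log2, SE 0.10, edgeR adjusted p = 0.659) in Clk3 KO.

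Tpm2 (ENSMUSG00000028464.16, chromosome 4), the beta-tropomyosin of skeletal and smooth muscle, stood far below Tpm1 per coding length, as given above. Its Clk3 KO levels were 63.4, 43.5, 30.8 and 58.0 CPM after TAC, against 25.5, 23.4, 22.1 and 44.2 CPM after sham. Clk3 KO sham 4 was far above the other 3 sham libraries, and the groups overlapped through it. The rise was 1.69-fold (log2 0.76, SE 0.24, edgeR adjusted p = 0.0496), at the edge of the threshold. It was 1.04 (log2, edgeR adjusted p = 0.00801) without Clk3 KO sham 4. It was not called without any 1 of Clk3 KO sham 1 to 3 or Clk3 KO TAC 1, 2 or 4 (edgeR adjusted p = 0.0718 to 0.144), nor without either wild-type TAC library or wild-type sham 1 or 2 (0.0523 to 0.0595). In wild type it stood at 53.6 and 51.0 CPM after TAC, against 49.3, 43.1, 32.8 and 58.0 CPM after sham (log2 0.19, SE 0.29, edgeR adjusted p = 0.723).

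Among the smooth muscle markers, Myh11, Cnn1 and Tagln moved with Tpm2 across the libraries. Acta2 did not follow it in Clk3 KO. It was at 218, 128, 204 and 198 CPM after TAC, against 178, 160, 102 and 147 CPM after sham. Myh11, the smooth muscle myosin heavy chain, was at 139, 74.6, 67.3 and 107 CPM in Clk3 KO TAC, against 52.0, 47.5, 46.1 and 114 CPM in Clk3 KO sham, so sham 4 was again far above sham 1 to 3. Cnn1 was at 15.2, 5.68, 3.53 and 8.26 CPM after TAC, against 1.93, 1.38, 1.06 and 8.33 CPM after sham. Tagln was at 102, 46.0, 41.5 and 69.7 CPM after TAC, against 28.8, 25.1, 22.3 and 68.8 CPM after sham. The sum over 4 smooth muscle markers, Acta2 included, was 288 to 297 CPM in wild-type TAC, 199 to 427 in wild-type sham, 254 to 474 in Clk3 KO TAC and 171 to 338 in Clk3 KO sham, and none of the 4 passed the test after TAC. The genes nearest to Tpm2 in pattern over the 14 libraries were Mustn1, Myl9 and Myh11, at a root mean squared difference of 0.15, 0.18 and 0.19 in centred log2 CPM, where Tpm2 itself varied by 0.49. The part of smooth muscle content in the Tpm2 call was not tested.

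**Figure D4:**
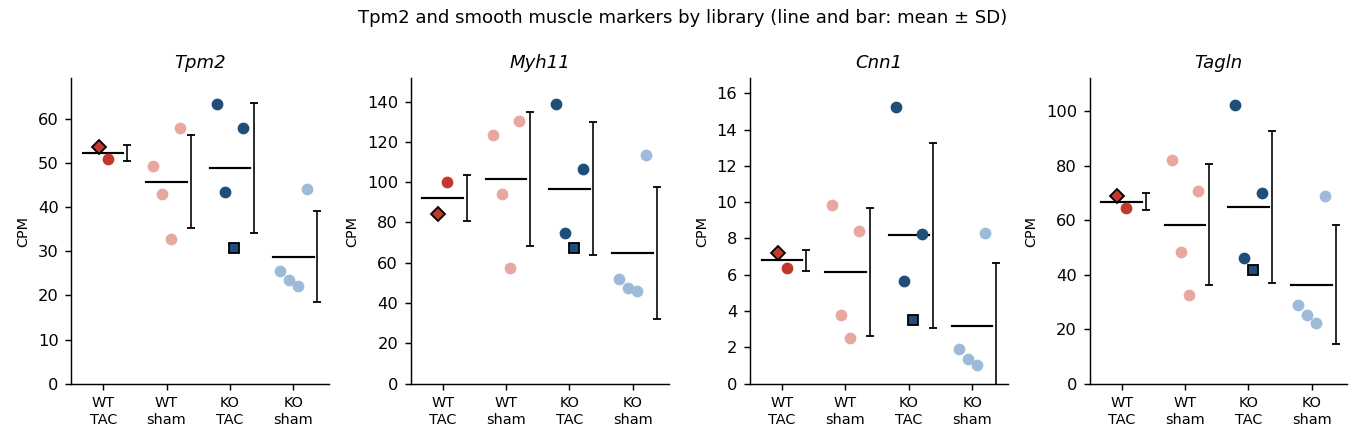
Tpm2 and the smooth muscle markers Myh11, Cnn1 and Tagln in CPM (linear axes from 0) by library and group, with mean and SD. In all 4 panels Clk3 KO sham 1 to 3 are the low libraries of their group and sham 4 the high one. The marker Acta2, for which sham 4 was not the highest, is not shown.

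Tnnt1 (ENSMUSG00000064179.13, chromosome 7, 4504570 to 4516382), slow skeletal troponin T, was lower after TAC in wild type. Its level was 13.7 and 12.2 CPM in wild-type TAC, against 29.6, 22.5, 27.1 and 19.7 CPM in wild-type sham, with no overlap. The fall was to 0.525 of the sham level (log2 −0.93, SE 0.19, edgeR adjusted p = 0.00448). It was called in each fit that left out 1 library, −1.01 without the library labelled wild-type TAC 1 (edgeR adjusted p = 0.0449) included, and in 10-week libraries alone (−0.86, edgeR adjusted p = 0.0266). The Clk3 KO levels were 16.7, 15.4, 22.3 and 16.5 CPM after TAC, against 24.9, 28.0, 20.4 and 21.04 CPM after sham, a difference of −0.41 (log2, SE 0.15) that missed the threshold (edgeR adjusted p = 0.0778). Clk3 KO TAC 3 was the overlapping library, and without it the value was −0.54 and was called (edgeR adjusted p = 0.0241). The fetal and skeletal isoforms thus did not move together, since Acta1 was higher and Tnnt1 lower in the wild-type TAC libraries.

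Tnnt2 (ENSMUSG00000026414.13, chromosome 1), cardiac troponin T, stood at 4466 and 4976 CPM in wild-type TAC, against 6034, 4841, 4828 and 5196 CPM in wild-type sham. Levels in Clk3 KO were 5593, 4525, 3896 and 4461 CPM after TAC, against 5621, 5611, 5332 and 5285 CPM after sham. The differences of −0.15 (log2, SE 0.12) in wild type and −0.24 (log2, SE 0.10) in Clk3 KO missed the threshold (edgeR adjusted p = 0.503 and 0.125). The ratio of Tnnt1 to Tnnt2 was lower by 0.78 on the log2 scale after TAC in wild type (exact permutation p = 0.0667, the smallest possible) and differed by −0.16 in Clk3 KO (exact permutation p = 0.486).

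Tnni3 (ENSMUSG00000035458.15, chromosome 7, 4518305 to 4524229), cardiac troponin I, lies next to Tnnt1 on the same strand. Its level was 1597 and 1886 CPM in wild-type TAC, against 2310, 1796, 1861 and 1952 CPM in wild-type sham, and at 2387, 1969, 1775 and 1791 CPM in Clk3 KO TAC, against 2146, 2100, 2128 and 2157 CPM in Clk3 KO sham. The differences of −0.19 (log2, SE 0.12) and −0.11 (log2, SE 0.10) missed the threshold (edgeR adjusted p = 0.37 in wild type and 0.504 in Clk3 KO). Tnni3 overlaps Dnaaf3 on the same strand, with which 1.69% of its 50-base stretches are shared.

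Tnni1 (ENSMUSG00000026418.16, chromosome 1), the fetal slow skeletal troponin I, stayed near the limit of detection. It had 9 and 7 counts in wild-type TAC, 8, 4, 5 and 6 in wild-type sham, 1, 1, 8 and 4 in Clk3 KO TAC and 2, 9, 11 and 5 in Clk3 KO sham. It did not reach the count minimum, so it was not tested over all genes. Whether it differed between groups was not detectable at this depth. Its neighbour Tnnt2 on the same strand of chromosome 1 was among the most abundant members.

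Tnnc1 (ENSMUSG00000091898.8, chromosome 14), the troponin C of heart and slow muscle, stood at 1693 and 1659 CPM in wild-type TAC, against 1628, 1251, 1293 and 1338 CPM in wild-type sham, without overlap. The difference of 0.28 (log2, SE 0.12) missed the threshold (edgeR adjusted p = 0.151). Levels in Clk3 KO were 1899, 1620, 1323 and 1492 CPM after TAC, against 1421, 1396, 1498 and 1446 CPM after sham (log2 0.14, SE 0.10, edgeR adjusted p = 0.386). Tnnc1 and Actc1 were each other's nearest gene in pattern over the 14 libraries, at a root mean squared difference of 0.062 in centred log2 CPM.

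Between genotypes, none of the 9 members passed in sham hearts, after TAC or in the test of the difference between the TAC effects. Over all genes 0.888%, 1.48% and 0.0192% were called in these comparisons by edgeR, and 18.0%, 14.8% and 6.53% had an unadjusted p under 0.05. Among the members 1 of 9 had such an unadjusted p in each: Tpm2 in sham, Tnnt1 after TAC and Tnnt1 in the difference of TAC effects. DESeq2 called none of the 9 in any of the 3.

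Acta1 was lower in Clk3 KO in both surgeries without passing. In sham it averaged 247 ± 52.3 CPM in Clk3 KO and 422 ± 186 CPM in wild type (SD, n = 4 each), a difference of −0.77 (log2, SE 0.44, edgeR adjusted p = 0.376). After TAC it averaged 1201 ± 612 CPM in Clk3 KO (n = 4) and 2295 ± 1457 CPM in wild type (n = 2), a difference of −0.94 (log2, SE 0.52, edgeR adjusted p = 0.434). Without the library labelled wild-type TAC 1 that value was −0.08 (SE 0.65, edgeR adjusted p = 0.975). The TAC effect on Acta1 differed between Clk3 KO and wild type by −0.17 (log2, SE 0.69, edgeR adjusted p = 0.994), and by 0.69 without that library. The sign also turned without wild-type sham 2 (0.094) or Clk3 KO TAC 3 (0.17).

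Tpm2 averaged 28.8 ± 10.4 CPM in Clk3 KO sham and 45.8 ± 10.6 CPM in wild-type sham (SD, n = 4 each), a difference of −0.67 (log2, SE 0.24) that missed the threshold (edgeR adjusted p = 0.158). It was called in the fit without a filter on low counts (−0.69, edgeR adjusted p = 0.00955), and was −0.96 without Clk3 KO sham 4 (edgeR adjusted p = 0.058). The summed smooth muscle markers overlapped between these groups, at 171 to 338 CPM in Clk3 KO sham and 199 to 427 CPM in wild-type sham. Over the 4 markers the median log2 difference was −0.66, with 0 called. Tnnt1 was at 17.7 ± 3.09 CPM in Clk3 KO TAC (n = 4) and 12.9 ± 1.02 CPM in wild-type TAC (n = 2), a difference of 0.46 (log2, SE 0.19, edgeR adjusted p = 0.267). Its TAC effect differed between genotypes by 0.52 (log2, SE 0.24, unadjusted p = 0.0425, edgeR adjusted p = 0.744). The TAC effect on Tpm2 differed between genotypes by 0.56 (log2, SE 0.38, edgeR adjusted p = 0.845). For the other values the genotype differences lay between −0.11 and 0.19 (log2) after sham and after TAC, and the differences between TAC effects between −0.20 and 0.08.

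The deposited counts are split into the coding and the untranslated parts of each gene, which gives a readout that does not depend on the gene's level. Of the 8 members with at least 20 counts on average in each part, Tnnt2 had a lower untranslated share after TAC. In GENCODE M21 the exons of Tnnt2 sum to 7752 bases around 961 coding bases, over 15 annotated transcripts. Its untranslated part may thus hold exons of other transcript forms besides the ends of the coding mRNA. Which transcripts gave these reads was not tested. In Clk3 KO the untranslated part took 7.54%, 7.92%, 7.23% and 8.66% of the reads of Tnnt2 after TAC, against 12.1%, 13.3%, 12.01% and 10.4% after sham, without overlap. The log2 ratio of untranslated to coding reads fell by 0.67 (SE 0.13, limma adjusted p = 0.0463), and 0.176% of 9640 genes were called. That call was lost in 9 of the 14 fits that left out 1 library (limma adjusted p = 0.0528 to 0.192). In wild type it took 6.49% and 9.29% after TAC, against 11.3%, 13.4%, 10.6% and 13.1% after sham, a log2 difference of −0.70 (SE 0.16) that did not pass (limma adjusted p = 0.208), with 0.0104% of genes called. No member and 0.0% of genes were called by this ratio in the 3 genotype comparisons.

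Tnni3 was the other member with a large difference on this scale, larger than that of Tnnt2 in wild type and smaller in Clk3 KO. The untranslated part took 1.13% and 2.51% of its reads in wild-type TAC, against 2.45%, 3.97%, 2.80% and 4.11% in wild-type sham (log2 −0.97, SE 0.24, limma adjusted p = 0.271). It took 1.81%, 1.62%, 1.92% and 2.20% in Clk3 KO TAC, against 2.66%, 2.72%, 2.56% and 2.64% in Clk3 KO sham, without overlap (log2 −0.51, SE 0.20, limma adjusted p = 0.388). In wild type Tpm2 differed in the other direction, by 0.58, Tpm1 by −0.50 and Tnnc1 by −0.38 (log2, SE 0.30, 0.21 and 0.15). Their differences in Clk3 KO were 0.04, −0.26 and −0.09, and none of these passed. Acta1 differed by −0.24 in wild type and −0.06 in Clk3 KO and did not pass. Counted by the untranslated part alone, Tnnt2 was lower after TAC in both genotypes (log2 −0.74, edgeR adjusted p = 0.0109 in wild type, and −0.86, edgeR adjusted p = 0.00136 in Clk3 KO), and Tnni3 in wild type (−1.001, edgeR adjusted p = 0.0159), an alternative added after the data were seen. The share of reads in no annotated feature was also lower after TAC, at 10.7% and 14.9% in wild-type TAC, against 14.3% to 17.6% in wild-type sham, and at 12.3% to 14.3% in Clk3 KO TAC, against 17.1% to 19.0% in Clk3 KO sham. Its part in these ratios was not tested.

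**Figure D5:**
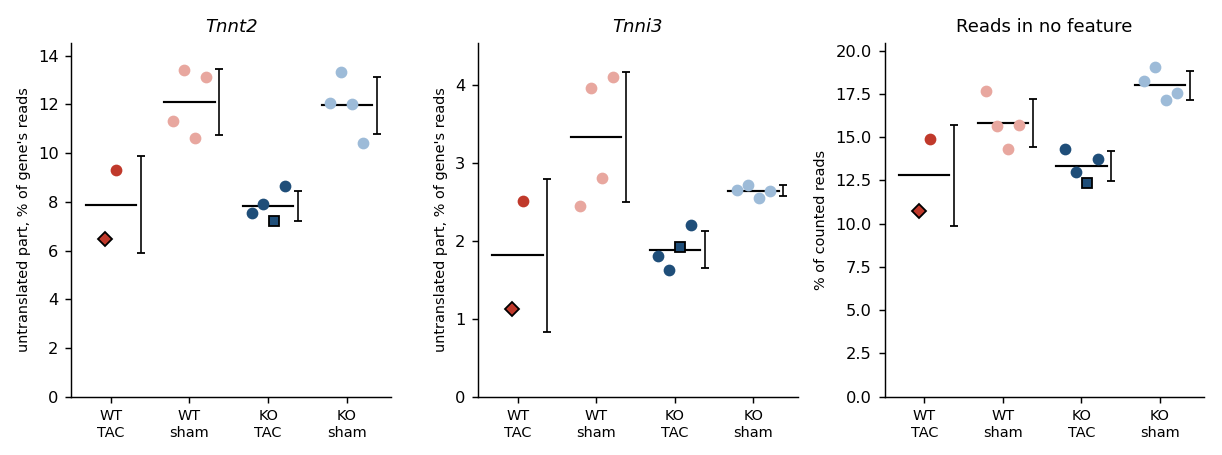
Untranslated part as a percentage of the reads of Tnnt2 (left) and Tnni3 (middle), and reads in no annotated feature as a percentage of counted reads (right), by library with mean and SD. In Clk3 KO the 4 TAC libraries lie below the 4 sham libraries in all 3 panels.

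The genes nearest to Acta1 in pattern over the 14 libraries were Gm29773, Tbx15, Lman1l, Mgat5b and Nlrc3, at root mean squared differences of 0.40 to 0.52 in centred log2 CPM, where Acta1 itself varied by 1.31. Gm29773 is annotated as an antisense RNA on the plus strand of chromosome 8 (123896273 to 123900620), upstream of Acta1 and not overlapping it. Gm29773 was low, at 4.37 and 0.96 CPM in wild-type TAC, against 0.05 to 0.23 CPM in wild-type sham. In Clk3 KO it was at 1.39, 1.15, 0.22 and 1.32 CPM after TAC, against 0 to 0.14 CPM after sham. Its sham levels were near the limit of detection. These genes were chosen for likeness to Acta1, so differences between TAC and sham follow from that choice. As their choice by likeness to Acta1 favours, Clk3 KO TAC 3 was the lowest of its group for all 5, with 1.68 CPM of Tbx15 and 1.74 CPM of Lman1l, against 3.05 to 3.52 and 3.99 to 4.69 CPM in the other 3 Clk3 KO TAC libraries. The nearest genes of the abundant members differed from them by 0.053 to 0.090 on the same scale: Slc25a4, Atp5g3 and Cox4i1 for Tpm1, Ldhb, Idh3b and Myzap for Tnni3, Trim35, Fads3 and Mybpc3 for Actn2, and Lpl, Arglu1 and Hdhd5 for Tnnt2. For Tnnt1 they were Cmbl, Mitf and Mov10l1, at 0.12 to 0.13.

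Other genes of the thin filament were followed in 4 lists. Many of them are active in every cell type, and some markers of other cells differed after TAC. The sum of 4 fibroblast markers was 1275 to 1563 CPM in wild-type TAC, against 712 to 1034 in wild-type sham, and 924 to 1052 in Clk3 KO TAC, against 762 to 853 in Clk3 KO sham. That of 4 macrophage markers was 132 to 168 CPM in wild-type TAC, against 98.1 to 117 in wild-type sham, and 105 to 137 in Clk3 KO TAC, against 73.7 to 99.9 in Clk3 KO sham. TAC and sham did not overlap in these sums, as also held for 30.6% of all genes in wild type and 21.8% in Clk3 KO. Of the 4 fibroblast markers, 2 were called higher in wild type and 1 in Clk3 KO. Of the 4 macrophage markers, 1 was called higher in wild type and 2 in Clk3 KO. Over all genes 12.2% and 13.0% were called. The sum of 4 endothelial markers overlapped, at 1104 to 1110 CPM in wild-type TAC, against 841 to 1214 in wild-type sham, and at 847 to 1147 in Clk3 KO TAC, against 769 to 1018 in Clk3 KO sham. No marker of the 3 lists was at 0 in every library, and the part of these cells in the values below was not tested. Of 7 other actins and actinins, 6 were tested, and Actn1, a non-muscle alpha-actinin, rose in both genotypes, by 0.54 in wild type and 0.64 in Clk3 KO (log2, SE 0.16 and 0.13, edgeR adjusted p = 0.0341 and 0.00711). In Clk3 KO the cytoplasmic actin Actb and the actinin Actn4 rose too, by 0.38 and 0.37 (log2). The calls were 1 of 6 in wild type and 3 of 6 in Clk3 KO, beside 12.2% and 13.0% of all genes. The list's median was 0.24 in wild type and 0.37 in Clk3 KO. Of the 4 tested of 5 other troponins and tropomyosins, none was called in wild type, and Tpm3 rose in Clk3 KO (log2 0.29, SE 0.09, edgeR adjusted p = 0.0461). The fast skeletal troponins were near the limit of detection, with at most 1.46 CPM of Tnnt3, 1.95 CPM of Tnni2 and 0.49 CPM of Tnnc2 in any library.

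Of 23 genes of thin filament length and actin assembly, 2 rose and 1 fell in wild type, and 6 rose and 1 fell in Clk3 KO, beside 12.2% and 13.0% of all genes called. The wild-type count is near that background. Nrap, which binds actin where new myofibrils form, stood at 1558 and 1480 CPM in wild-type TAC, against 767 to 968 CPM in wild-type sham, and at 1578, 1520, 1039 and 1273 CPM in Clk3 KO TAC, against 873 to 914 CPM in Clk3 KO sham. It rose by 0.77 in wild type and 0.59 in Clk3 KO (log2, SE 0.13 and 0.11, edgeR adjusted p = 0.00117 and 0.00422), without overlap in either. Wdr1, a cofactor of actin disassembly by cofilin, rose by 0.40 and 0.33 (log2, edgeR adjusted p = 0.0199 and 0.0226). The tropomodulin Tmod4, which caps thin filaments of skeletal muscle, fell by 0.62 in wild type (log2, edgeR adjusted p = 0.0167). The cofilin Cfl1 and the profilin Pfn1 rose in Clk3 KO by 0.37 and 0.26 (log2, edgeR adjusted p = 0.00477 and 0.0127), and Nebl, which encodes nebulette, fell by 0.49 (log2, edgeR adjusted p = 0.00938). Pfn1 was lower in Clk3 KO sham than in wild-type sham by 0.27 on the log2 scale (edgeR adjusted p = 0.0497), the 1 gene of these 4 lists called between genotypes. In that comparison the median log2 difference was −0.27 over the endothelial, −0.31 over the macrophage and −0.06 over the fibroblast markers, with none of them called.

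Of 11 transcription factors of sarcomeric actin genes, 2 were called in each genotype, beside 12.2% of all genes in wild type and 13.0% in Clk3 KO. Mef2a fell in both genotypes, by 0.37 in wild type and 0.35 in Clk3 KO (log2, SE 0.10 and 0.08, edgeR adjusted p = 0.026 and 0.0136). Tbx5 fell in wild type by 0.98 (log2, SE 0.28, edgeR adjusted p = 0.0288). Srf, the factor of the CArG box, rose in Clk3 KO by 0.35 (log2, SE 0.10, edgeR adjusted p = 0.0359). Srf stood at 154, 162, 173 and 157 CPM in Clk3 KO TAC, against 126, 110, 123 and 146 CPM in Clk3 KO sham, so the library with the low Acta1 level had the highest Srf level of its group. In wild type Srf stood at 161 and 133 CPM after TAC, against 104, 113, 125 and 144 CPM after sham.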

How the data were processed

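RNA from hearts of 14 samples was sequenced. Per the labels' protocols the libraries were poly(A)-selected and strand-specific. Per the submitters' processing notes, the tools were STAR 2.4.2a, Picard 2.10.3 and bcl2fastq 2.17.1.14 and the builds mm10 and GRCm38, with no roles stated. The deposited values are whole-number counts per gene with coding and untranslated parts, per the file headers, in a layout like that of QoRTs. Which counter, annotation and strand setting they used is not given in the sources. Antisense overlaps are therefore uncertain. Identifiers were matched to GENCODE M21 (51719 of 51912).

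Reads in no feature (10.7% to 19.0% of counted reads) and ambiguous reads (1.43% to 1.59%) were left out. filterByExpr (minimum count 10) left 15651 genes, 36261 untested. Counts were scaled by TMM and tested with edgeR 4.0.16 (R 4.3.3) in 1 fit of 14 libraries and 4 groups, with Benjamini-Hochberg adjustment over all genes and a threshold of 0.05 (biological coefficient of variation 11.8%). CPM are computed on TMM-scaled library sizes. Log2((untranslated + 0.5)/(coding + 0.5)) was tested with limma 3.58.1 over 9640 genes. Isoform ratios used exact two-sided permutation tests. Scripts were tested on simulated data.

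Within groups, pairs of libraries differed by a chi-square of at least 3.43 times its degrees of freedom, and each counted as a replicate. Replicate numbers follow deposit order and pair nothing. Named genes were all 10 members, up to 4 genes per list by smallest p, and the nearest genes in pattern. The members and lists were chosen with earlier results of these data known.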

Additional observations from a re-analysis of the deposited data

Results flagged for a closer look

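Tpm2 in Clk3 KO sham 4 stood at 44.2 CPM, against 22.1 to 25.5 CPM in Clk3 KO sham 1 to 3. The gap to the nearest library was 0.849 of the group's range, above Dixon's critical value for 4 libraries. Of 30 groups of 4 libraries examined over the 10 members this was the 1 so marked, where chance marks about 1 in 20. Of the smooth muscle markers, Myh11, Cnn1 and Tagln were also highest in Clk3 KO sham 4 of that group. Acta2 was not, at 147 CPM against 178, 160 and 102 CPM in Clk3 KO sham 1 to 3. The part of smooth muscle content in the Tpm2 value was not tested.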

How the results depend on the processing

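Across 22 alternatives the rise of Acta1 was called in 20 in wild type (log2 1.59 to 2.98) and in 21 in Clk3 KO (2.101 to 2.60), and the fall of Tnnt1 in wild type in 21 (−1.29 to −0.81). The rises of Actn2 (12 of 22) and Tpm2 (6 of 22) in Clk3 KO often missed the threshold. The smaller samples or fewer degrees of freedom of the age settings and of leaving out a library are part of their construction. Otherwise the cause was not tested. The members called after TAC in wild type numbered 1 in 10-week libraries alone, beside 6.09% of all genes. They numbered 2 to 3 with 1 library outside wild-type TAC left out, beside 9.62% to 12.9%. The fit without the library labelled wild-type TAC 1 is given above. In Clk3 KO they numbered 1 with age as a covariate, beside 3.76% of all genes, and 0 in 10-week libraries alone, beside 0.0975%. With 1 library left out they numbered 1 to 4 (without Clk3 KO TAC 3), beside 5.1% to 14.6%. The calls of all genes thus moved with these settings too. Between genotypes in sham, 1 member (Tpm2) was called without a filter on low counts, beside 1.3% of all genes. The number of members with a changed untranslated to coding ratio ranged from 0 to 2 (without wild-type TAC 2) in wild type and from 0 to 1 in Clk3 KO with 1 library left out.

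Several values that were not called changed sign. Counted by the untranslated part, the TAC difference in wild type was −0.070 for Tnnc1 and −0.36 for Tpm1. On the same count the genotype difference in sham was −0.083 for Actc1, −0.21 for Tnni3 and −0.14 for Tnnc1, after TAC 0.066 for Actn2 and 0.010 for Tpm1, and in the TAC effect 0.027 for Actc1 and 0.11 for Tnnc1. The genotype difference in the TAC effect on Acta1 was 0.46 in 10-week libraries alone and −0.70 to 0.69 with 1 library left out, and ranged from −0.047 to 0.073 for Actn2 and −0.035 to 0.20 for Tnni3. With 1 library left out, the genotype difference ranged from −0.17 to 0.030 for Tnnt1 in sham, and after TAC from −0.14 to 0.047 for Tnnt2 and −0.25 to 0.066 for Tpm2. The log2 ratio of Tnni1 to Tnni3 between genotypes in sham ranged from −0.083 to 0.75, that of Tpm2 to Tpm1 from −0.049 to 0.25 after TAC in wild type and from −0.21 to 0.093 between genotypes after TAC. Depth limited Tnni1, with at most 11 counts in a library. No paired analysis was possible because replicate numbers follow deposit order.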
